A study of Homo sapiens with 21 samples.

Results

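The cytosolic ribosome is built from ribosomal RNA and a large set of ribosomal proteins, and the genes of those proteins were followed here in 7 groups of libraries from a breast cancer cell line. Members were the protein-coding genes whose symbol begins with RPL or RPS followed by a number (with RPLP0, RPLP1, RPLP2 and RPSA) and whose mean over the 21 libraries was at least 10 FPKM, the deposited unit of fragments per kilobase of gene, scaled to library size. Of the 19951 protein-coding genes listed, 87 carried such a symbol and 77 passed the minimum, 48 of the large and 29 of the small subunit.

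The cells were MDA-MB-453, a luminal line from a human breast cancer, and the study asked which of its genes respond to metals and drugs thought to act through the nuclear receptor ESRRB. The 7 groups had 3 libraries each, and the treatments lasted 24 h. They were a control, calcium at 10 mM, cadmium at 10 µM and GSK4716 (an ESRRB agonist in the study) at 5 µM. Diethylstilbestrol (DES, used as the ESRRB antagonist) at 10 µM was given alone, with calcium or with cadmium, the metals at those doses. Before treatment the cells spent 24 h in IMEM medium with charcoal-stripped calf serum. Calcium and GSK4716 were then given in IMEM without serum and cadmium in IMEM with a little stripped serum. DES and GSK4716 were dissolved in ethanol. The medium and vehicle of the single control group are not given, so a difference in either cannot be told apart from a treatment. In the combined groups DES was added 3 h before the metal, and DES alone was given for 24 h in all, so time with DES differs between them and cannot be told apart from the metal. All libraries come from 1 line, and the labels do not say whether the replicates were separate cultures, so each p-value measures the spread between these samples, which may be technical.

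Ribosomal proteins hold the folded ribosomal RNA in place, line the channel of the mRNA and the exit tunnel of the new protein, and form the stalk that recruits elongation factors. Their mRNAs are among the most abundant of a growing cell and most begin with a run of pyrimidines, the 5′ terminal oligopyrimidine (TOP) motif, through which mTORC1 and the RNA-binding protein LARP1 control their translation and stability. Several genes have a second, diverged copy, a paralog, whose product can take the place of the first in the ribosome.

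Because most of these mRNAs begin in this way, the bases around the transcription start of 7 members whose values are described in detail are shown, from 50 bases before to 20 after the start, read on the coding strand of RefSeq's GRCh38.p14, in which 63 of the 77 members have a promoter entry (79 entries). Capitals mark the longest run of C and T that touches the 20 bases on either side of the start, where it has at least 5 bases. The windows are chr12:120201092-120201161 (minus strand) for RPLP0, chr9:19380217-19380286 (minus strand) for RPS6, chr19:5690245-5690314 (plus strand) for RPL36, chr18:49492446-49492515 (minus strand) for RPL17, chr1:6199576-6199645 (minus strand) for RPL22, chr3:170870176-170870245 (minus strand) for RPL22L1 and chr6:42879566-42879635 (plus strand) for RPL7L1.
RPLP0: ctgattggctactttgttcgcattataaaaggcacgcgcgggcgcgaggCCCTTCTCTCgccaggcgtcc
RPS6: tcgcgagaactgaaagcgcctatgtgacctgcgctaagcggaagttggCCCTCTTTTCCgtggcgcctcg
RPL36: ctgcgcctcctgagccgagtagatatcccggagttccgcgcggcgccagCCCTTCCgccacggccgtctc
RPL17: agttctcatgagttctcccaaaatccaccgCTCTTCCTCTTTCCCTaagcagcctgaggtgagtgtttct
RPL22: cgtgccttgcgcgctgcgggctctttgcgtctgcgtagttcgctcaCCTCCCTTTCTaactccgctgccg
RPL22L1: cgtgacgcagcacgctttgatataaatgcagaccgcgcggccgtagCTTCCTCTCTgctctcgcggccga
RPL7L1: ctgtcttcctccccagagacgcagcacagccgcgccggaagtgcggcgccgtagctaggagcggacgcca
The run had 10 bases in RPLP0 and RPL22L1, 11 in RPS6 and RPL22, 7 in RPL36 and 16 in RPL17, where it ended before the start. In RPL7L1 no run of 5 bases or more touched the 20 bases on either side of the start, and a longer run further upstream is left unmarked. Over the members' entries the median run was 11 bases against 5 over the 35116 promoters of the table. A run of at least 10 was found in 56 of the 79 entries (70.9%) against 11.4% of all promoters, and a run of at least 8 in 62 (78.5% against 21.9%).

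Other short motifs were searched in the same entries, which reach from 250 bases before to 50 after the start. CCGGAAG, letters that ETS factors bind, was found on either strand in 31.6% of the members' entries and 10.3% of all promoters. ATGGCG, the core of the YY1 motif, was in 36.7% against 10.7% and TCGCGA in 19.0% against 3.12%, again on either strand. TATAAA on the coding strand in the 50 bases before the start was in 3 entries (3.80% against 2.63%). A match describes the sequence and names no bound factor.

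The libraries held 14435925 to 28424805 fragments on genes (median 18314738), and the lowest count of a member in a library was 110 fragments. Markers of a luminal line (ERBB2, KRT8, KRT18, KRT19, FOXA1, GATA3 and EPCAM) were present, with KRT19, a simple epithelial keratin, the most abundant. Markers of basal cells, leukocytes and endothelium (KRT5, KRT14 and TP63, then PTPRC, CD3E and CD68, then PECAM1 and CDH5) all averaged under 0.5 FPKM over the 21 libraries, though TP63 averaged 0.715 in cadmium and CD68 0.516 in DES and 0.684 in DES with calcium against 0.0164 in the control. Of 3 fibroblast markers COL1A1 alone was present (sum 9.35 to 32.7 FPKM, with the 3 highest in DES replicate 3 and in DES with cadmium replicates 3 and 2) while COL1A2 and DCN were near 0. In calcium KRT8 rose by a log2 change of 1.79 and KRT18 by 1.65, calls lost for KRT8 without control replicate 1 (adjusted p 0.11), control replicate 2 (0.1), calcium replicate 1 (0.0678) or calcium replicate 2 (0.0752) and for KRT18 without control replicate 1 (adjusted p 0.116), control replicate 2 (0.108), calcium replicate 1 (0.0734) or calcium replicate 2 (0.0765). In DES the pioneer factor FOXA1 (-1.17) fell, as did GATA3, FOXA1 not without control replicate 1 (adjusted p 0.0651), control replicate 3 (0.0517) or DES replicate 2 (0.0554). With the replicate number as a block KRT8 (0.0895) and KRT18 (0.0965) were not called in calcium.

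Members spanned a wide range of levels. The highest mean belonged to RPS2 (1196 FPKM), a small subunit protein near the mRNA entry, followed by RPL10 (1096), which helps to join the subunits, and RPS12 (975). The median member stood at 196 FPKM, the large subunit genes at 161 and the small at 219. The lowest were RPL17 (10.3), RPL7L1 (14.5), RPL22L1 (15.7) and RPS29 (17.5), just inside the minimum. RPL17 and RPL22L1 reached it only through the libraries with DES, since each of their 12 values without DES lay under 10 FPKM. Just outside it were RPS27L, a p53-inducible paralog of RPS27, at 6.04 and RPL26 at 4.96, then RPS10 (1.54), RPL36A (1.01) and the tissue-restricted paralogs RPL3L (0.152), RPL39L (0.0207) and RPL10L (0).

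Low values of some of these genes are uncertain. Another protein-coding gene overlaps on the same strand RPL26, RPS10 and RPL36A, which lie under the minimum, and 5 of the 77 members (RPL17, RPL36, RPS13, RPL22 and RPS15A), and fragments falling on both genes may have gone uncounted. RPL17 held 9938 fragments over the 21 libraries and the overlapping readthrough gene RPL17-C18orf32 held 39. Lengths in the FPKM are those of all exons joined, a median of 2.86 times the canonical transcript and from 1.08 to 33.4 times, so levels are better compared within a gene than between genes. Fragments on 1144 named pseudogenes of the members amounted to 3.61% to 4.54% of the members' own, and 6 members (RPL9, RPL7, RPS7, RPS2, RPSA and RPL39) had over 10%. The strand protocol is described in conflicting ways, and 18 members overlap a gene on the other strand with over 2% of their fragments, RPL36 (LONP1, 33.5%) and RPL6 (PTPN11, 31.1%) above all.

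The share of the transcriptome that these 77 genes took up differed between libraries with and without DES. They held 4.77, 4.63 and 4.54% of the fragments in the control libraries, 4.58, 4.98 and 3.50% with calcium, 4.67, 3.52 and 3.15% with cadmium and 5.19, 3.84 and 4.57% with GSK4716. Under DES the share was 8.92, 6.43 and 5.69%, under DES plus calcium 8.88, 9.71 and 8.50%, and under DES plus cadmium 9.28, 6.93 and 7.25%. Every one of the 9 libraries with DES thus stood above every one of the 12 without it, and the groups without DES overlapped each other. Group means (n = 3, SD) were 4.65 ± 0.116% in the control, 7.01 ± 1.69% with DES and 9.03 ± 0.615% with DES and calcium, and the widest 95% Wilson interval of a library, which covers counting error only, spanned 0.0271 points. Other values of the libraries differed as well. Mitochondrial genes held 8.19, 7.70 and 7.93% of the fragments in the control, 4.96, 3.47 and 4.21% with DES, 5.17, 4.34 and 4.57% with DES and calcium and 5.31, 1.97 and 3.11% with DES and cadmium, and without those fragments the members' share still lay at 5.94 to 10.1% with DES and 3.40 to 5.66% without. DES replicate 3, with the lowest share under DES, had fragments on 35112 genes against 20363 and 22143 in replicates 1 and 2. The cause was not tested. In bulk RNA a shift between cell states with more or fewer of these mRNAs and a change in RNA per cell cannot be told apart.

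**Figure D1:**
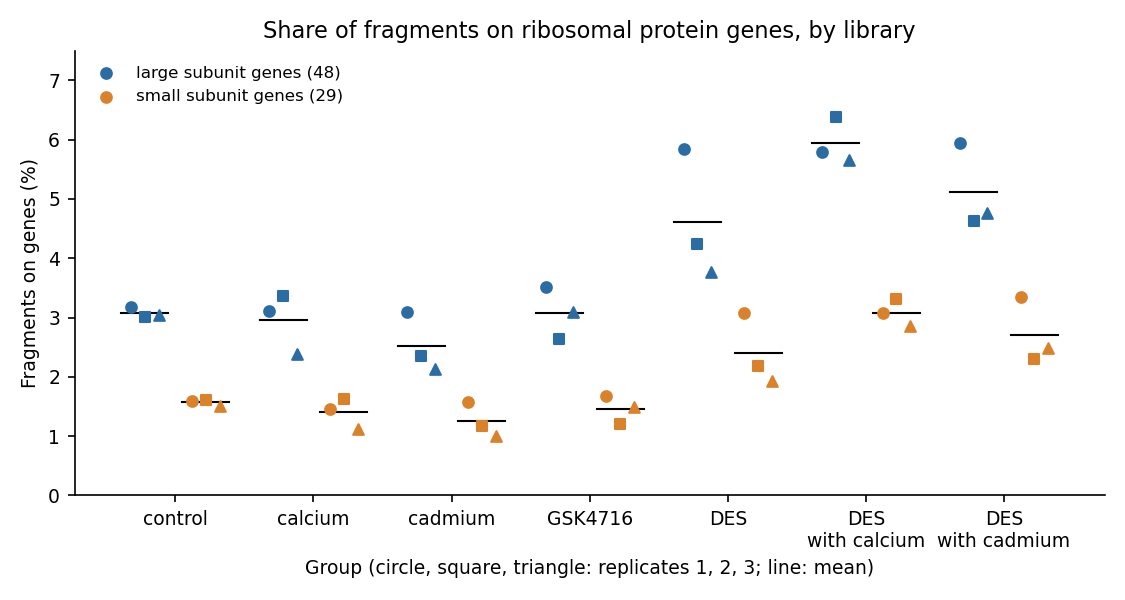
Percent of each library's fragments on genes that fell on the 48 large subunit (blue) and 29 small subunit (orange) genes, with replicates 1, 2 and 3 as circle, square and triangle and a line at each group's mean. In both subunits the 9 libraries with DES lie above the 12 without it.

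Gene by gene, 41 of the 77 members (53.2%) had a higher FPKM in each of the 9 libraries with DES than in any of the other 12, against 4.14% of the 14686 genes tested (genes with a mean of at least 0.5 FPKM). RPL22L1, a member only through its values with DES, is 1 of the 41. No member lay below in the same way. The highest group mean was that of DES with calcium for 56 members, DES with cadmium for 20 and cadmium for 1, and the lowest was that of cadmium for 59 and of the control for 8.

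DES against the control asks how the antagonist alone acted. The 77 genes had a median log2 change of 0.81, a median fold of 1.75, while the median over all genes tested was 0.05. Of the members 75, all but RPL6 and RPL7L1, lay above 0, and in 65 the 3 DES values were all above the 3 control values (against 25.9% of all genes in that direction). By limma on log2(FPKM + 0.1), two-sided with Benjamini-Hochberg adjustment over the 14686 genes and called at an adjusted p under 0.05, 27 members rose and 0 fell, among them RPL17 and RPL22L1, which are members only through their values with DES. That is 35.1% of the members against 29.6% of all genes, near the background, while in the rising direction alone the background was 16.7%. At an unadjusted p under 0.05 there were 54 (43.2% of all genes), and limma-voom on recovered fragments called 37 higher and 0 lower (of all genes 1787 higher and 2967 lower). Without DES replicate 1 the members' median was 0.54.

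The 27 were 21 of the large subunit (RPL7, RPL10A, RPL11, RPL12, RPL14, RPL17, RPL22L1, RPL24, RPL26L1, RPL27A, RPL28, RPL30, RPL31, RPL32, RPL34, RPL35A, RPL36, RPL37, RPL38, RPL39 and RPLP2) and 6 of the small (RPS6, RPS9, RPS15, RPS24, RPS27 and RPS29). Their number depended on single libraries. Without control replicate 1 or control replicate 2 only RPL17 and RPL22L1 were called (13.1% and 14.5% of all genes), without control replicate 3 there were 6 (19.9%), without DES replicate 2 there were 4 (16.6%), and without DES replicate 3 there were 52 (28.5%). DES replicate 1 had the largest share in its group, and without it 34 were called, 33 higher and 1 lower (34.6% of all genes). With the replicate number as a block 10 were called (3117 of all genes), with no filter on low values 6 (1932 higher and 1265 lower of all genes), with quantile normalization 16 higher and 1 lower (2075 and 2543 of all genes), and with limma's weights for each library 73 higher and 2 lower, a fit that called 5523 of the 14686 genes higher and 4811 lower. The cause was not tested.

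Scaling changed the size of this shift and not its side. The library size behind the deposited FPKM was 0.693 to 1.15 times the fragments on genes, and scaling each library to its total fragments instead moved the median of all genes in DES against control by -0.17 on the log2 scale. Relative to the median of all genes the members stood at 0.76 as deposited and at 0.75 to 0.77 under total fragments, total fragments outside these and the mitochondrial genes, median-ratio scaling and voom. Quantile normalization, which gives each library the same distribution and moved the median of all genes by -0.14, left the members' median at 0.22, or 0.31 above that of all genes. The other shifts over 0.1 in DES against control were -0.19 for the total outside these and the mitochondrial genes and -0.19 for voom.

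**Figure D2:**
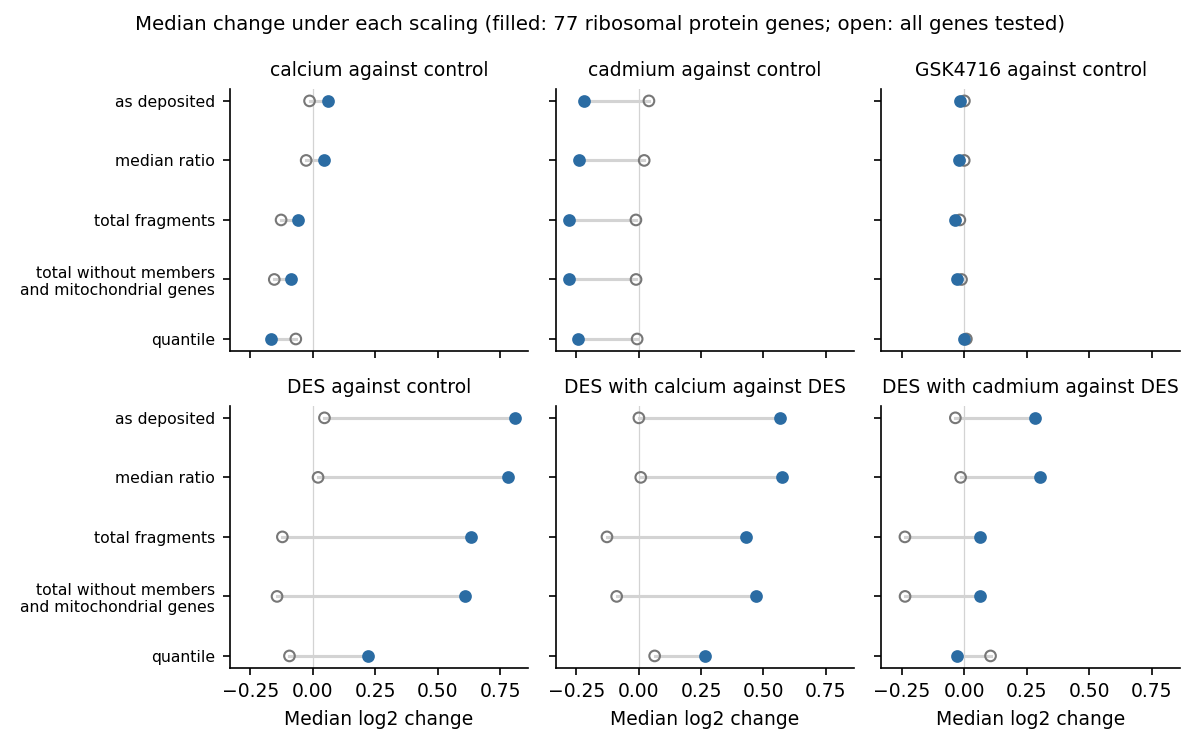
Median log2 change of the 77 ribosomal protein genes (filled) and of all genes tested (open) in each comparison, by scaling. The members lie to the right of all genes in DES against control and in DES with calcium against DES under each scaling, in calcium and in DES with cadmium under each but quantile normalization, and to the left in cadmium and, by less than 0.1, in GSK4716.

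**Figure D3:**
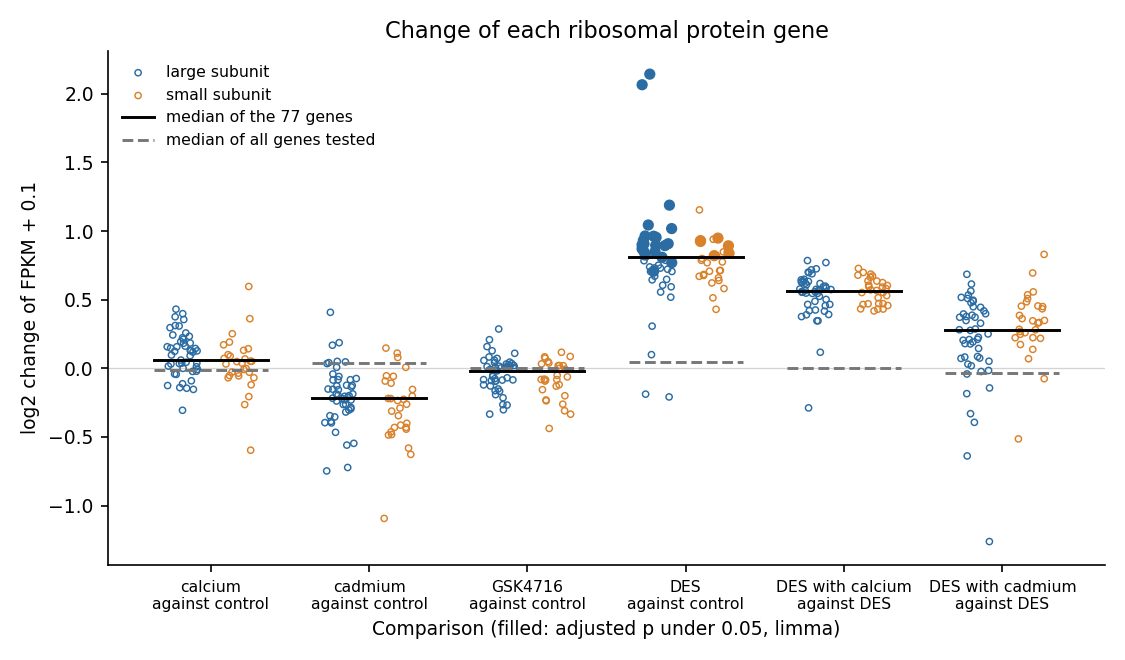
Log2 change of each of the 77 genes (large subunit blue, small orange; filled where the adjusted p was under 0.05) in the 6 comparisons, with the median of the members (solid line) and of all genes tested (dashed), in the deposited scaling. Filled points occur in DES against control alone, and in calcium and in DES with cadmium the members' median changes sign under another scaling.

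The stalk proteins come first by role. RPLP0 anchors the stalk and is the mRNA the study used as its reference in qPCR. Its FPKM was 295, 295 and 326 in the control, 259, 268 and 216 with calcium, 295, 242 and 257 with cadmium, 309, 289.9 and 312 with GSK4716, 589.6, 373 and 379 under DES, 528, 627 and 601 under DES plus calcium and 1002, 547 and 631 under DES plus cadmium. All 9 values with DES lay above all 12 without it, the highest in DES with cadmium replicate 1. No comparison called it (log2 change 0.52, adjusted p = 0.15 in DES against control), and in calcium all 3 values lay under the control (-0.31, adjusted p = 0.291), where quantile normalization called it lower. Of the stalk's paired acidic proteins, RPLP1 stood at 285, 264 and 310.3 in the control and 688, 429 and 425 with DES (log2 change 0.81, adjusted p = 0.0514). RPLP2 went from 132, 143 and 165 to 358, 250.2 and 257 and rose (log2 change 0.96, adjusted p = 0.016). For both the groups did not overlap, and the call of RPLP2 was lost without control replicate 1 (adjusted p 0.0835) or control replicate 2 (0.0669), and with the replicate number as a block (0.0538) or quantile normalization (0.0774).

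In the small subunit, RPSA, which also serves as a laminin receptor at the cell surface, had 198, 214 and 205 FPKM in the control and 388, 276 and 236 with DES (log2 change 0.51, adjusted p = 0.13). RPS2 had 823, 929.9 and 869 and 1881, 1262 and 1232 (log2 change 0.71, adjusted p = 0.109), and RPS12 569.6, 584 and 690.3 and 1652, 1003 and 980.2 (log2 change 0.94, adjusted p = 0.0542). In all of these the groups were apart and the call was missed. RPS6, the substrate of the S6 kinases, went from 131, 122 and 133 to 328, 200.2 and 178 and rose (log2 change 0.82, adjusted p = 0.0482). The same held for RPS27, a zinc finger protein of the small subunit, with 247, 242 and 317 and 655, 452 and 408 (log2 change 0.89, adjusted p = 0.0383). RPS4X, whose other copy is Y-linked, had 234, 197 and 229 and 579.8, 338 and 293 (log2 change 0.82, adjusted p = 0.0715). RPS6 was not called without control replicate 1 (adjusted p 0.135), control replicate 2 (0.142), control replicate 3 (0.105) or DES replicate 2 (0.0932), nor with median-ratio scaling (0.0543), the replicate number as a block (0.0768), no filter on low values (0.121), scaling to fragments outside these and the mitochondrial genes (0.0655) or quantile normalization (0.177). RPS27 was not called without control replicate 1 (adjusted p 0.147), control replicate 2 (0.135), control replicate 3 (0.0599) or DES replicate 2 (0.0928), nor with the replicate number as a block (0.0974), no filter on low values (0.123) or quantile normalization (0.364).

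Some small subunit proteins are made as fusions. RPS27A encodes ubiquitin joined to a ribosomal protein, FAU a ubiquitin-like protein joined to RPS30, and RACK1 is a scaffold on the small subunit. The last 2 lie outside the rule of names and were listed apart. RPS27A had 98.4, 101 and 112 FPKM in the control and 232, 156 and 133 with DES (log2 change 0.71, adjusted p = 0.0584). FAU rose from 92.9, 94.6 and 89.7 to 233, 158 and 122 (log2 change 0.84, adjusted p = 0.0422) and RACK1 from 127, 119 and 139.6 to 257, 189 and 176 (log2 change 0.67, adjusted p = 0.0446). None of these 3 genes overlapped between the groups, and in the other 5 comparisons limma called neither FAU nor RACK1. FAU, which overlaps SYVN1 on its strand, lost its call without control replicate 1 (adjusted p 0.125), control replicate 2 (0.113), control replicate 3 (0.106) or DES replicate 2 (0.103), and with the replicate number as a block (0.0645), no filter on low values (0.101), scaling to fragments outside these and the mitochondrial genes (0.0594) or quantile normalization (0.107). RACK1 lost it without control replicate 1 (adjusted p 0.149), control replicate 2 (0.147), control replicate 3 (0.0796) or DES replicate 2 (0.0971), and with median-ratio scaling (0.0522), the replicate number as a block (0.0998), no filter on low values (0.13), scaling to fragments outside these and the mitochondrial genes (0.0644), quantile normalization (0.577) or all 7 groups fitted together (0.0599).

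RPL5 and RPL11 form, with 5S ribosomal RNA, the particle that binds MDM2 when ribosome assembly fails. RPL11 had 128, 122 and 148 FPKM in the control and 299, 205 and 187 with DES and rose (log2 change 0.77, adjusted p = 0.0414), while RPL5 had 127, 118 and 127 and 218, 144 and 114 (log2 change 0.31, adjusted p = 0.382). RPL11 was apart between the groups and RPL5 overlapped, DES replicate 3 lying below the whole control. The call of RPL11 was lost without control replicate 1 (adjusted p 0.141), control replicate 2 (0.137), control replicate 3 (0.0715) or DES replicate 2 (0.0903), and with the replicate number as a block (0.088), no filter on low values (0.113), scaling to fragments outside these and the mitochondrial genes (0.0541) or quantile normalization (0.236). RPL3, beside the peptidyl transferase centre, had 393, 313 and 428 and 948, 597 and 504 (log2 change 0.81, adjusted p = 0.0813), and RPL10 738, 661 and 759 and 1649, 1089 and 983 (log2 change 0.75, adjusted p = 0.0965), both apart and neither called.

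To set aside any factor that multiplies a whole library, each gene's log2 value was also taken relative to the members' median in the same library and tested the same way, here called its departure. In DES against control 6 of the 77 departed (7.79%), 3 above and 3 below, against 29.6% of all genes. Of all 14686 genes 602 departed above and 3738 below. Subtracting the members' own median centres their departures near 0 by construction and shifts other genes by it, here and in the other comparisons. The members' share and that of all genes are therefore unlike, and do not show whether the family moved together. At an unadjusted p under 0.05 there were 8 (44.8% of all genes). RPL22L1, RPL17 and RPL36 lay above the family and RPL7L1, RPL6 and RPL5 below it, all of the large subunit. Without control replicate 1, control replicate 2, control replicate 3 or DES replicate 2, 1 of them was called in each case, RPL6.

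RPL22L1 (ENSG00000163584, chr3:170864875-170870483) is the paralog of RPL22 and had the largest log2 change among the members, to which it belongs only through its values with DES, so its rise is no independent sign of the family's. Its FPKM was 6.32, 5.94 and 5.26 in the control, 6.22, 9.62 and 8.18 with calcium, 9.10, 7.65 and 6.70 with cadmium, 7.46, 6.32 and 6.49 with GSK4716, 24.1, 30.7 and 24.0 under DES, 38.4, 41.4 and 36.8 under DES plus calcium and 16.5, 16.4 and 17.2 under DES plus cadmium. The 9 libraries with DES lay above the other 12, and DES with calcium was the highest group. It rose in DES against control (log2 change 2.14, adjusted p = 0.000516), and it departed from the family by 1.43 (adjusted p = 0.0139). The departure was not called without control replicate 1 (adjusted p 0.0545), control replicate 2 (0.0549), control replicate 3 (0.0578) or DES replicate 2 (0.0583), while the change was called under each of the 17 alternatives. RPL22 itself had 28.7, 28.8 and 27.6 in the control and 66.3, 44.8 and 35.7 with DES (log2 change 0.74, adjusted p = 0.0501).

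RPL17 (ENSG00000265681, chr18:49488453-49492523), a protein at the exit tunnel, was the lowest member of the control. It stood at 5.75, 5.51 and 3.75 FPKM there, 6.07, 6.75 and 6.16 with calcium, 3.70, 2.19 and 2.96 with cadmium, 6.85, 3.27 and 3.01 with GSK4716, 16.4, 28.6 and 19.5 under DES, 23.6, 22.8 and 21.6 under DES plus calcium and 8.60, 12.9 and 5.85 under DES plus cadmium. Like RPL22L1 it passed the minimum only through libraries with DES, and its rise is no independent sign of the family's. DES and DES with calcium lay above every other library, and DES with cadmium overlapped the groups without DES. RPL17 rose in DES against control (log2 change 2.07, adjusted p = 0.00278) under each of the 17 alternatives as well, and departed by 1.35 (adjusted p = 0.0391). That departure was lost without control replicate 1 (adjusted p 0.0917), control replicate 2 (0.0943), control replicate 3 (0.124), DES replicate 2 (0.127) or DES replicate 3 (0.0686). RPL36 (ENSG00000130255, chr19:5674947-5691876) had 123, 126 and 110.1 in the control and 415, 265 and 184 with DES, with no overlap. It rose (log2 change 1.19, adjusted p = 0.0256) and departed by 0.48 (adjusted p = 0.0466). Its rise was not called without control replicate 1 (adjusted p 0.0821), control replicate 2 (0.0763), control replicate 3 (0.0789) or DES replicate 2 (0.0775), nor with no filter on low values (0.0589). Its departure was not called without control replicate 1 (adjusted p 0.142), control replicate 2 (0.096), control replicate 3 (0.127), DES replicate 1 (0.0738) or DES replicate 2 (0.151), nor with a pseudocount of 1 (0.051) or the mean of the members as the centre (0.0572).

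Below the family, RPL6 (ENSG00000089009, chr12:112405190-112418838) had 131, 130.5 and 132 FPKM in the control and 183, 96.7 and 86.2 with DES, where DES replicate 1 lay above the control and the other 2 below it. Its log2 change was -0.19 (adjusted p = 0.645), and relative to the members' median it stood -0.90 (adjusted p = 0.00599), a departure called with each library left out. RPL7L1 (ENSG00000146223, chr6:42879618-42889925), a paralog of RPL7 found on particles of the large subunit in assembly, had 16.0, 14.6 and 16.3 and 15.5, 12.3 and 12.9 (log2 change -0.21, adjusted p = 0.323) and departed by -0.92 (adjusted p = 0.0229). RPL5 departed by -0.41 (adjusted p = 0.0467). The changes of these 3 lay below the family's median of 0.81. RPL36AL, with a departure of -0.61, was lower in that measure than RPL5 and not called (adjusted p = 0.0662), but was with the replicate number as a block, with the mean of the members as the centre and without DES replicate 3. RPL7L1 was not called as departing without control replicate 1 (adjusted p 0.102), control replicate 2 (0.0901), control replicate 3 (0.0803) or DES replicate 2 (0.0778). RPL5 was not called without control replicate 1 (adjusted p 0.187), control replicate 2 (0.145), control replicate 3 (0.103) or DES replicate 2 (0.137), nor with a pseudocount of 1 (0.0611) or the replicate number as a block (0.0757).

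**Figure D4:**
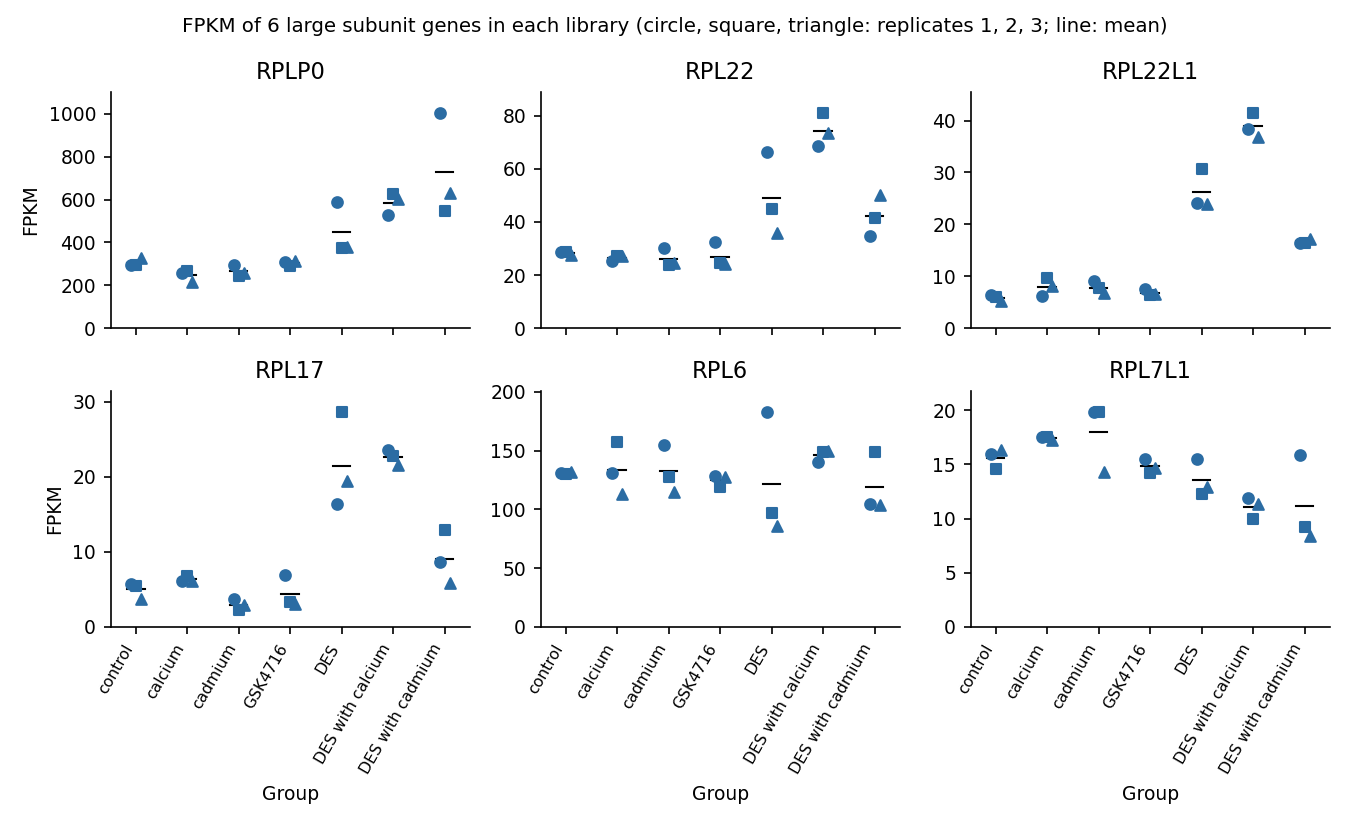
FPKM in each library of 6 large subunit genes: the qPCR reference RPLP0, the pair RPL22 and RPL22L1, and RPL17, RPL6 and RPL7L1, with replicates 1, 2 and 3 as circle, square and triangle and a line at each mean. RPLP0 and RPL22L1 are highest in the libraries with DES, and RPL6 and RPL7L1 are not.

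Pairs of paralogs were compared within each library, where the scaling cancels, as a description added after their values were seen. The log2 ratio of RPL22L1 to RPL22 averaged -2.26 ± 0.10 (SD, n = 3) in the control, -0.86 ± 0.52 under DES, -0.93 ± 0.08 under DES plus calcium and -1.31 ± 0.24 under DES plus cadmium. Calcium gave -1.74 ± 0.26, cadmium -1.73 ± 0.12 and GSK4716 -1.97 ± 0.12. Calcium replicate 2 (-1.49) lay above DES with cadmium replicate 3 (-1.54), so libraries with and without DES overlapped, and RPL22L1 is a member only through its values with DES. RPL7L1 to RPL7 moved the other way, from -3.95 ± 0.14 in the control to -4.86 ± 0.06 with DES and -5.76 ± 0.25 with DES and calcium, and was spread in DES with cadmium (-4.80 ± 1.59). RPL7 had 228, 219.7 and 283 in the control and 474, 348 and 375 with DES and rose (log2 change 0.71, adjusted p = 0.0473), a call lost without control replicate 1 (adjusted p 0.179), control replicate 2 (0.164), control replicate 3 (0.0649), DES replicate 1 (0.0523), DES replicate 2 (0.091) or DES replicate 3 (0.0674), and with median-ratio scaling (0.0545), the replicate number as a block (0.119), no filter on low values (0.164), scaling to fragments outside these and the mitochondrial genes (0.0653), quantile normalization (0.825) or all 7 groups fitted together (0.141).

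RPS27L had 3.97, 3.81 and 3.65 FPKM in the control, 2.57, 1.58 and 1.53 with cadmium and 11.8, 12 and 9.88 with DES. The DES group lay above the control and the cadmium group below it. RPS27L rose in DES (log2 change 1.53, adjusted p = 0.00137), called with each library left out, and its log2 ratio to RPS27 was -6.09 ± 0.27 in the control, -5.45 ± 0.29 with DES and -7.21 ± 0.40 with cadmium, where its change was log2 change -1.01, adjusted p = 0.0888. RPL26, with 2.56, 2.41 and 3.64 in the control and 5.79, 8.20 and 6.70 with DES, rose as well (log2 change 1.25, adjusted p = 0.00905), also with each library left out. Its paralog RPL26L1 had 15.4, 18.8 and 16.2 and 43.0, 25.8 and 23.0 and rose (log2 change 0.81, adjusted p = 0.0482). The ratio of the pair did not separate, at 2.53 ± 0.39 and 2.09 ± 0.68. RPL26L1 was not called without control replicate 1 (adjusted p 0.149), control replicate 2 (0.0953), control replicate 3 (0.117) or DES replicate 2 (0.0875), nor with scaling to total fragments (0.0588), median-ratio scaling (0.0538), the replicate number as a block (0.0727), no filter on low values (0.0965), scaling to fragments outside these and the mitochondrial genes (0.0763), quantile normalization (0.0687) or limma-voom (0.0606).

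RPL39, a short protein of the exit tunnel, had 80.4, 83.8 and 83.3 FPKM in the control and 213, 142 and 107 with DES and rose (log2 change 0.84, adjusted p = 0.0458), while its testis paralog RPL39L was listed at 0 in most libraries. The call of RPL39 was lost without control replicate 1 (adjusted p 0.137), control replicate 2 (0.12), control replicate 3 (0.105) or DES replicate 2 (0.111), and with median-ratio scaling (0.0518), the replicate number as a block (0.0713), no filter on low values (0.105), scaling to fragments outside these and the mitochondrial genes (0.0637) or quantile normalization (0.119). RPL36AL had 143, 135 and 168 and 163, 169.8 and 144 (log2 change 0.10, adjusted p = 0.687), and RPL36A, overlapped by a readthrough gene, averaged 1.01 FPKM. Their log2 ratio was 6.80 ± 0.57 in the control and 6.50 ± 0.81 with DES. RPL3L, of striated muscle, averaged 0.152 FPKM, and RPL10L was at 0 in each.

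Cadmium against the control had the opposite median. The 77 genes stood at -0.22 against 0.04 for all genes, with 65 members below 0, and the side was the same under each scaling (-0.22 to -0.28). In 14 members all cadmium values lay below all control values and in 1, RPL22L1, above, against 16.7% and 17.7% of all genes, so the downward share was near the background and the upward share far below it. limma called 0 members (0.15% of all genes), with 11 at an unadjusted p under 0.05, below the share over all genes (25.9%). By voom 1 was called, RPS26, lower, with 208 of all genes higher and 246 lower. The median was -0.35 without cadmium replicate 1. Without that library, which had the highest share of its group, 4 were called lower: RPL18, RPL29, RPS26 and RPSA, with 10.9% of all genes. Fitted with all 7 groups, RPS26 alone was called lower, with 533 of all genes lower and 493 higher. Among genes with a mean of at least 2 FPKM RPS26 was again the only member called, lower, with 77 genes lower and 79 higher. The library weights of limma called 55 members lower and 4 higher, where they called 3993 of all genes lower and 4332 higher.

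RPS26 sits at the channel through which mRNA leaves the small subunit. It had 109.7, 119.5 and 95.1 FPKM in the control, 114, 128 and 84.5 with calcium, 61.6, 43.7 and 47.5 with cadmium, 101, 86.1 and 88.4 with GSK4716, 252, 160.2 and 117 under DES, 255, 254 and 212 under DES plus calcium and 413, 183 and 154 under DES plus cadmium. The 3 cadmium values were the lowest of the 21, and the values under DES plus cadmium overlapped those under DES. Against control the change in cadmium was -1.09 (adjusted p = 0.0608), the lowest of the family, and the departure -0.97 (adjusted p = 0.0637). RPL29 (-0.60) and RPS23 (-0.50) were the next below, and RPL22L1 (0.53), RPL7L1 (0.31) and RPL5 (0.17) the highest above among those apart. 0 members were called as departing by limma (0.354% of all genes), with 6 at an unadjusted p under 0.05 (22.5% of all genes). Without cadmium replicate 1 there were 2, RPS26 and RPL29, and with all 7 groups fitted together 1, RPS26.

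Calcium against the control left the family near 0, at a median of 0.06 against -0.01 for all genes. Scaling decided its sign: it was -0.06 with total fragments and with voom, -0.09 with the total outside these and the mitochondrial genes and -0.17 with quantile normalization. Relative to all genes, whose median those scalings moved by -0.11 (total), -0.12 (voom) and -0.14 (total outside these genes), the members stood 0.07 above in the first 3 and -0.10 from them with quantile normalization. In 7 members calcium lay wholly above the control and in 4 (RPL22, RPLP0, RPS2 and RPS3) below, against 16% and 13.6% of all genes. limma called 0 (7.12% of all genes), with 1, RPL34, at an unadjusted p under 0.05 (23.5% of all genes). The median was 0.03 without calcium replicate 1, -0.04 without calcium replicate 2 and 0.20 without calcium replicate 3. voom called RPS2 lower, quantile normalization RPS2 and RPLP0 lower, and library weights RPL34 higher. Of all genes voom called 755 higher and 831 lower, quantile normalization 763 and 649, and library weights 1324 and 946.

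RPS2 was the lowest of the family in calcium. It had 667, 685 and 421 FPKM there against 823, 929.9 and 869 in the control, with no overlap and calcium replicate 3 the lowest (log2 change -0.60, adjusted p = 0.236). Its departure was -0.72 (adjusted p = 0.0524), and RPLP0 (-0.43) and RPSA (-0.38) were next below, while RPL36 (0.28), RPL34 (0.26) and RPL28 (0.19) lay highest above among those apart. RPL28 and RPL34 are large subunit proteins without a counterpart in bacteria. The highest change was that of RPS15A, at 0.60 (adjusted p = 0.409). limma called 0 departures in calcium (4.62% of all genes), with 4 at an unadjusted p under 0.05 (19.3% of all genes), and with all 7 groups fitted together 1, RPS2.

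GSK4716, the agonist, left the members at a median of -0.02 against 0.00 for all genes, and between -0.04 and 0 under other scalings. It was -0.11 without GSK4716 replicate 1, 0.07 without GSK4716 replicate 2, -0.05 without GSK4716 replicate 3 and -0.05 without control replicate 2. Members ranged from -0.44 (RPS15A) to 0.29 (RPL3). In 1 member, RPL22L1, the groups were apart upward and in 5 (RPL6, RPL26L1, RPL27, RPS2 and RPSA) downward, against 10.7% and 11.5% of all genes. limma called 0 members and 0% of all genes, with 1 member, RPL26L1, at an unadjusted p under 0.05 (16.4% of all genes) and 0 by voom. The departures called were 0 as well (0% of all genes, and 0 members at an unadjusted p under 0.05, against 11.5% of all genes). RPL3 (0.32), RPL22L1 (0.24) and RPL10 (0.19) lay highest and RPS2 (-0.30), RPL26L1 (-0.27) and RPSA (-0.20) lowest among those apart.

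DES with calcium was set against DES alone to ask what calcium added to the antagonist, and the 2 comparisons of DES share the DES libraries. The members' median was 0.57 against 0.00 for all genes, with 76 of 77 above 0. Taken by replicate number, the members' share went from 8.92 to 8.88, 6.43 to 9.71 and 5.69 to 8.50%, so the pair of replicate 1 was level. The median was 0.43 with total fragments, which moved the median of all genes by -0.13 (voom by -0.12). It was 0.47 with the total outside these genes and 0.265 with quantile normalization, and lay 0.20 to 0.57 above all genes in each scaling. Without DES replicate 3 it was 0.34. In 19 members the groups were apart upward and in 1, RPL7L1, downward (7.84% and 12.1% of all genes). limma called 0 members (0.136% of all genes), with 18 at an unadjusted p under 0.05 (13.2% of all genes) and 0 by voom, and library weights called 11 higher (186 of all genes). Member changes ran from RPL7L1 (-0.29) to RPL39 (0.78).

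RPL7L1 was again the lowest, with 11.9, 9.97 and 11.3 FPKM against 15.5, 12.3 and 12.9 in DES, apart, and a departure of -0.84 (adjusted p = 0.203). Next below among those apart were RPL3 (-0.21) and RPL8 (-0.16), and above lay RPL39 (0.23), RPL34 (0.22) and RPL31 (0.15). limma called 0 departures (0.143% of all genes), with 1 at an unadjusted p under 0.05 (20.6% of all genes). Without DES replicate 1, whose share of these genes was the highest of its group, 2 were called below the family, RPL17 and RPL7L1, and with all 7 groups fitted together 1, RPL7L1.

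DES with cadmium against DES had a median of 0.28 against -0.04 for all genes, and 66 members lay above 0. The sign rested on the scaling: the median was 0.06 with total fragments, with the total outside these genes and with voom, which moved all genes by -0.20, -0.20 and -0.22, and -0.03 with quantile normalization, which moved them by 0.14. Relative to all genes that was 0.30 to 0.32 and, for quantile normalization, -0.14. The size rested on single libraries as well: the median was 0.58 without DES replicate 1, 0.09 without DES replicate 3, 0.07 without DES with cadmium replicate 1 and 0.44 without DES with cadmium replicate 2. In 1 member, RPS28, the groups were apart upward and in 2, RPL17 and RPL22L1, downward (5.38% and 10.9% of all genes). limma called 0 (0.266% of all genes), with 3 at an unadjusted p under 0.05 (10.4% of all genes) and 0 by voom. Taken by replicate number, the members' share went from 8.92 to 9.28, 6.43 to 6.93 and 5.69 to 7.25%, higher in each of the 3, and with that number as a block 0 members were called. With all 7 groups fitted together RPL17 and RPL22L1 fell, where 515 of all genes fell and 88 rose. Library weights called those 2 members lower and RPS28 higher, with 1456 of all genes lower and 520 higher.

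RPL22L1, which had 16.5, 16.4 and 17.2 FPKM with DES and cadmium against 24.1, 30.7 and 24.0 with DES, did not overlap (log2 change -0.64, adjusted p = 0.304). RPL17 had 8.60, 12.9 and 5.85 against 16.4, 28.6 and 19.5, again apart (log2 change -1.26, adjusted p = 0.285). RPL36, the other gene above the family in DES, had 315, 305 and 249 against 415, 265 and 184 and overlapped. Departures whose groups did not overlap were highest for RPS28 (0.48), RPLP0 (0.34) and RPL13 (0.17), and lowest for RPL22L1 (-0.99), RPL7L1 (-0.68) and RPL22 (-0.53). The departure of RPL17, with overlap, was lower still at -1.61 (adjusted p = 0.466). limma called 0 departures (0.0817% of all genes), with 2 at an unadjusted p under 0.05 (8.48% of all genes). With the replicate number as a block 1 member was called, RPL17, where 686 of all genes were called. With all 7 groups fitted together 2 were, RPL17 and RPL22L1.

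Whether a metal acted differently with DES was tested as an interaction in 12 libraries. The members' median was 0.51 for calcium (all genes -0.02) and 0.55 for cadmium (all genes -0.09). limma called 0 members for calcium (3.63% of all genes), with 7 at an unadjusted p under 0.05 (19.9% of all genes), and 0 for cadmium (1.18%), with 5 (18.5%). voom was not run for these. Relative to all genes the cadmium interaction stood at 0.63 as deposited and 0.62 with total fragments. The difference in time with DES is part of both values. Without DES with cadmium replicate 1 the median of the cadmium interaction was 0.28 and 0 members were called.

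The subunits of a ribosome are needed in equal number, so large and small subunit genes were compared within each library, where scaling cancels. The mean log2 of the 48 large subunit genes minus that of the 29 small was -0.30, -0.34 and -0.28 in the control, -0.25, -0.27 and -0.18 with calcium, -0.28, -0.23 and -0.15 with cadmium and -0.29, -0.20 and -0.28 with GSK4716. Under DES it was -0.35, -0.27 and -0.23, under DES plus calcium -0.34, -0.34 and -0.26, and under DES plus cadmium -0.65, -0.25 and -0.35. All 21 values were negative and overlapped between most groups. Gene length does not cancel between different genes, so the sign does not tell which subunit had more mRNA. In fragments the large genes held from 1.78 (DES with cadmium replicate 1) to 2.19 (GSK4716 replicate 2) times as many as the small. Without the 4 paralogs with an L in the suffix, most of them low, the control mean was -0.10 in place of -0.31, and 3 libraries (cadmium replicate 3, GSK4716 replicate 2 and DES with cadmium replicate 2) were no longer below 0. DES with cadmium replicate 1 was alone at -0.65, and in that library the 100 highest genes held 32.3% of the fragments against 20.7% to 27.1% in the others.

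**Figure D5:**
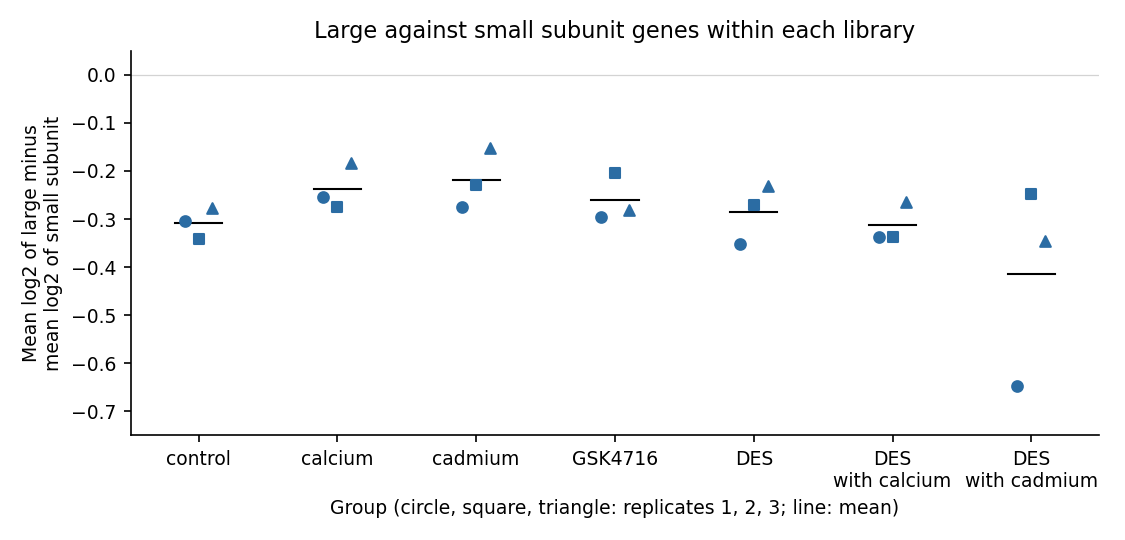
Mean log2(FPKM + 0.1) of the 48 large subunit genes minus that of the 29 small subunit genes in each library, with replicates 1, 2 and 3 as circle, square and triangle and a line at each group's mean. Control and DES libraries overlap, and DES with cadmium replicate 1 is the lowest at -0.65.

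DES against control differed by 0.02 in this measure, less than the spread between replicates, and by -0.02 with the median over members in place of the mean. The large mean includes RPL17 (log2 change 2.07) and RPL22L1 (2.14), members only through their values with DES, which raise it. The difference without both was not computed, so the sign of the 0.02 cannot be read. The large had a median change of 0.81 there with 46 of 48 above 0, the small 0.79 with 29 of 29. limma called 21 of the large and 6 of the small, and 6 and 0 as departing, against 29.6% of all genes in each measure. RPL17 and RPL22L1, members only through their values with DES, are among the large genes of both counts, and the difference between the subunits' counts was not tested. Calcium differed from control by 0.07 and cadmium by 0.09, each with no overlap, where an exact permutation test of 3 against 3 cannot give a p below 0.1. Neither was apart with the median over members or without the 4 paralogs with an L in the suffix. GSK4716 differed by 0.05, DES with calcium from DES by -0.03 (0.11 with the median) and DES with cadmium from DES by -0.13 (-0.27 with the median, -0.01 without DES with cadmium replicate 1), all with overlap except the median of DES with calcium. The values of calcium and cadmium were 0.04 without calcium replicate 3 and 0.06 without cadmium replicate 3. Median changes of the large and small genes were 0.12 and 0.04 in calcium, -0.20 and -0.26 in cadmium, -0.00385 and -0.08 in GSK4716, 0.57 and 0.57 in DES with calcium and 0.24 and 0.33 in DES with cadmium.

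Other genes of translation were taken from lists and read in DES against control, where the median over all genes was 0.05, 16.7% of them rose and 12.9% fell. Among 8 elongation factors and related genes tested 1 rose, TPT1, a translationally controlled TOP mRNA (0.86, adjusted p = 0.031), and the list's median was 0.45. Among 28 initiation factors with PABPC1 6 rose and 0 fell (median 0.40). The RNA helicase EIF4A1 went from 1.22, 1.32 and 0.683 to 7.01, 10.6 and 9.24 FPKM (2.97, adjusted p = 0.00126) and its paralog EIF4A2 from 82.7, 67.6 and 68.2 to 151, 198 and 182 (1.28, adjusted p = 0.00392), both apart. EIF4A1 lies in the readthrough gene SENP3-EIF4A1, and its low FPKM is uncertain for that reason. TPT1 was not called without control replicate 1 (adjusted p 0.0984), control replicate 2 (0.116), control replicate 3 (0.0667) or DES replicate 2 (0.0689), nor with the replicate number as a block (0.0607), no filter on low values (0.0851) or quantile normalization (0.173).

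Regulators of ribosomal protein mRNA translation gave 1 rise and 3 falls of 10 (median -0.42). LARP1, the protein that binds TOP mRNAs, had 32.4, 27.9 and 36.4 FPKM in the control and 13.2, 14.1 and 14.4 with DES and fell (-1.20, adjusted p = 0.00273). EIF4EBP2, a repressor of cap binding under mTORC1, fell too (-1.13, adjusted p = 0.00436), RPTOR, an mTORC1 subunit, was the third, and SESN2, an mTORC1 inhibitor of the stress response, rose (1.11, adjusted p = 0.0196). In calcium DDIT4, another mTORC1 inhibitor, fell from 109, 113 and 97.9 to 55.8, 59.1 and 48.7 FPKM (-0.97, adjusted p = 0.015). SESN2 was not called without control replicate 1 (adjusted p 0.0714), control replicate 2 (0.0745), DES replicate 2 (0.0726) or DES replicate 3 (0.052), nor with all 7 groups fitted together (0.121). DDIT4 was not called without control replicate 1 (adjusted p 0.0835), control replicate 2 (0.0756) or calcium replicate 1 (0.0503), nor with the replicate number as a block (0.0503).

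Ribosome biogenesis factors rose in 16 of 50 with 0 falls (median 0.50). BRIX1, which acts on the large subunit in assembly, went from 5.21, 6.30 and 3.74 to 14.2, 20.6 and 14.8 FPKM (1.69, adjusted p = 0.00431) and the nucleolar GTPase GNL3 from 36.4, 33.7 and 32.4 to 64.0, 111 and 74.8 (1.24, adjusted p = 0.0079). Both were apart. In calcium SBDS, which releases a factor from the new large subunit, rose (0.75, adjusted p = 0.0169), but not without control replicate 1 (adjusted p 0.0927), control replicate 2 (0.081) or calcium replicate 2 (0.0551), nor with the replicate number as a block (0.0778). RNA polymerase I genes, which transcribe ribosomal RNA, gave 6 rises and 1 fall of 14 (median 0.48). The subunit gene ZNRD1 rose (1.88, adjusted p = 0.00167), as did TAF1A (1.12, adjusted p = 0.0274), and POLR1A, the largest subunit, fell (-1.001, adjusted p = 0.00681). TAF1A was not called without control replicate 1 (adjusted p 0.0874), control replicate 2 (0.0573), control replicate 3 (0.0849), DES replicate 2 (0.0896) or DES replicate 3 (0.0751), nor with scaling to total fragments (0.0716), no filter on low values (0.0511), scaling to fragments outside these and the mitochondrial genes (0.0663) or limma-voom (0.0754).

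Mitochondrial ribosomal proteins, which serve a separate ribosome, rose in 29 and fell in 2 of 77 (median 0.47). MRPS30 (1.48, adjusted p = 0.00159) and MRPL14 (1.31, adjusted p = 0.00228) had the largest rises, with MRPS30 at 6.08, 6.08 and 7.26 in the control and 16.8, 20.7 and 17.4 with DES. MRPL53 (-1.22, adjusted p = 0.0136) and MRPS18B (-0.81, adjusted p = 0.0395) fell. MRPL53 overlaps CCDC142 on its strand and was not called without control replicate 1 (adjusted p 0.0705), control replicate 2 (0.0638) or DES replicate 2 (0.0507), nor with all 7 groups fitted together (0.0518). MRPS18B was not called without control replicate 1 (adjusted p 0.101), control replicate 2 (0.076), control replicate 3 (0.111), DES replicate 2 (0.109) or DES replicate 3 (0.0799), nor with the replicate number as a block (0.0756), no filter on low values (0.0803) or all 7 groups fitted together (0.0503). In the other comparisons limma called 0 genes of these lists but DDIT4 and SBDS in calcium. At an unadjusted p under 0.05 the biogenesis factors gave 18 of 50 with GSK4716 (median -0.31; 16.4% of all genes) and 8 with cadmium (25.9%), and the mitochondrial proteins 22 of 77 with cadmium, 20 with GSK4716 and 10 in DES with calcium (13.2%). The share of biogenesis factors in cadmium lay below that of all genes, and those of the mitochondrial proteins in cadmium and in DES with calcium were near it.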

How the data were processed

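Poly-A mRNA of 21 libraries, 3 per group, was sequenced in pairs of 150 bases. The authors aligned reads to GRCh38.p14 with HISAT2 2.0.5, counted genes with featureCounts 1.5.0-p3 and deposited FPKM, values already scaled to library size and gene length. Fragments were recovered from FPKM and gene length, whole within 0.01 in each library (14435925 to 28424805 per library). Members and gene lists were chosen with earlier results of these data known. Genes with a mean of at least 0.5 FPKM (14686 of 58735, all 77 members included) were tested on log2(FPKM + 0.1) with limma 3.58.1 in R 4.3.3 (lmFit and eBayes with trend, two-sided, Benjamini-Hochberg), each comparison on its own 6 libraries. A departure is the log2 value minus the members' median in the same library. No p-value was computed over the members together. Named were the stalk genes and RPSA, paralog pairs, RPL5, RPL11, RPS6, RPS27A, FAU and RACK1, the 3 members of highest and of lowest mean, those nearest the minimum, in each comparison the 3 highest and 3 lowest departures whose groups do not overlap, and of each list (other ribosomal proteins, elongation, initiation, regulators, biogenesis, RNA polymerase I, mitochondrial ribosome, cell markers) the 2 largest called rises and falls; other names were chosen after their values were seen, and some genes under these rules are not reported here. Alternatives changed the scaling (total fragments, total outside the members and mitochondrial genes, median ratio, quantile), filter, pseudocount, fit, library weights, replicate block, limma-voom and single libraries, and an interaction without DES with cadmium replicate 1 was chosen after seeing the data. Pairing by replicate number was checked by correlating residuals: each same-number pair exceeded 0.1 in DES with calcium (0.132, 0.103 and 0.28) and DES with cadmium (0.472, 0.121 and 0.313) against DES and in no other comparison, so the block was kept as an alternative. Tables and figures used Python 3.11.15 with numpy 2.4.6, pandas 2.3.3 and matplotlib 3.10.9. The fits were tested on simulated data.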

Additional observations from a re-analysis of the deposited data

How the results depend on the processing

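Under each alternative the medians of the ribosomal protein genes in cadmium and GSK4716 stayed within the spread between fits that left out single libraries. Quantile normalization lay outside that spread in calcium (-0.17), DES against control (0.22), DES with calcium (0.265) and DES with cadmium (-0.03). Scaling to total fragments lay below it in calcium (-0.06) and DES with cadmium (0.06). So did limma-voom (-0.06 and 0.06) and scaling to fragments outside the members and mitochondrial genes (-0.09 and 0.06). The other alternatives stayed within it. That spread is wide: leaving out single libraries gave -0.04 to 0.20 in calcium, -0.35 to -0.15 in cadmium, -0.11 to 0.07 in GSK4716, 0.54 to 1.01 in DES against control, 0.34 to 0.83 in DES with calcium and 0.07 to 0.58 in DES with cadmium. Counts of called members moved more. In calcium the count was 2 with quantile normalization, 1 with limma's library weights and 1 with limma-voom. Of all genes those fits called 763 higher and 649 lower, 1324 and 946, and 755 and 831, in that order. In cadmium the count of members was 1 with a minimum mean of 2 FPKM, 1 with all 7 groups in a single fit, 59 with library weights and 1 with limma-voom. Of all genes those fits called 79 higher and 77 lower, 493 and 533, 4332 and 3993, and 208 and 246. Leaving out single libraries gave 0 to 4 members there. In DES against control the count of members was 10 with the replicate number as a block and 6 with no filter on low values (which adds genes to the adjustment). It was 17 with quantile normalization and 75 with library weights, and 2 to 52 when single libraries were left out. Of all genes the first 4 of these fits called 1870 higher and 1247 lower, 1932 and 1265, 2075 and 2543, and 5523 and 4811. Library weights gave 11 members in DES with calcium and 3 in DES with cadmium, where all 7 groups in a single fit gave 2. Of all genes those fits called 186 higher and 532 lower, 520 and 1456, and 88 and 515. The replicate block left the other 5 comparisons and both interactions at 0.

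Departures with all 7 groups in a single fit numbered 1 in calcium, 1 in cadmium, 1 in DES with calcium and 2 in DES with cadmium. In DES with cadmium the replicate block gave 1, with 686 of all genes called. Leaving out single libraries gave 0 to 2 in cadmium, 1 to 6 in DES against control and 0 to 2 in DES with calcium. The large minus small difference taken over medians of members was 0.20 in calcium, 0.00345 in cadmium, 0.15 in GSK4716, 0.11 in DES with calcium and -0.27 in DES with cadmium. For 45 results of named genes 723 alternatives were run, of which 540 kept the call, 183 lost it and 0 reversed it. The cause was not tested for any of these.

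With 3 libraries a group many calls rest on single libraries. Each member held at least 110 fragments in each library. Values are relative to the library, so RNA per cell was not measured. Fragments on exons that a gene shares with another on its strand were not recoverable from these values.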
